A study of Caenorhabditis elegans and Caenorhabditis briggsae with 26 samples.

Results

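L1 larvae of the nematode Caenorhabditis elegans were compared with L1 larvae of its relative Caenorhabditis briggsae by poly(A)+ RNA sequencing, in 6 of the 26 libraries of a developmental time course. The C. elegans larvae were of the wild-type strain N2 and the C. briggsae larvae of the wild-type strain AF16. In both species embryos were freed from gravid adults with bleach and hatched in buffer without food, which halts development at the L1 stage. The arrested larvae were then placed in liquid S-medium at 20 °C with the Escherichia coli strain AT713. C. elegans was collected 7 h after food was added and C. briggsae 6 h after, so the species and the feeding time cannot be told apart. Each species had 2 cultures: culture B repeated the time course of culture A, and culture A had 2 libraries, A1 and A2. Values are RPKM, reads scaled for the length of the gene model and for the size of the library, as deposited, and 3 values in a row are those of libraries A1, A2 and B. The comparison covers the genes that have values in both species. The table lists C. briggsae genes by their C. elegans orthologs, and 13813 pairs of its 21774 IDs entered.

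The first larval stage hatches with a fixed set of cells that form the pharynx, gut, muscle, epidermis and nervous system. Without food it waits in arrest, a state held by low insulin-like signalling through the receptor DAF-2. Feeding restarts growth, ribosome production and cell division, and the larva then builds the collagen cuticle that it will need after its first molt.

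The libraries carried the marks of the stage. The heterochronic genes lin-14 and lin-28, which specify early larval fates, had 83.5, 85.9 and 79.0 RPKM (lin-14) and 83.9, 85.1 and 65.1 RPKM (lin-28) in C. elegans, against 97.5, 96.7 and 78.1 RPKM (lin-14) and 80.5, 88.1 and 77.6 RPKM (lin-28) in C. briggsae. The yolk protein gene vit-2, an adult product, was at most 1.41 RPKM in C. elegans and at most 0.254 RPKM in C. briggsae. The adult cuticle collagen col-19 was at most 0.152 RPKM in C. elegans, against 3.94 to 7.38 RPKM in C. briggsae. The 43 adult and sperm transcripts listed as markers of carry-over summed to 44.9 to 51.1 RPKM in C. elegans, against 81.3 to 94.2 RPKM in C. briggsae, and the 53 embryonic and maternal ones to 160 to 248 RPKM, against 225 to 331 RPKM. The part that these transcripts play in the differences below was not tested.

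C. elegans library A1 stood between the other C. elegans libraries. Over 6134 pairs with at least 10 RPKM, A1 lay between A2 and B in 80.7%, and it deviated by a median of 2.52% from the sum of 0.569 times A2 and 0.466 times B. In C. briggsae A1 lay between the others in 44.1% of 6068 pairs and deviated by a median of 6.65% from the best such sum. C. elegans A2 and B differed by more than 2-fold in 9.15% of the pairs tested and C. briggsae A2 and B in 5.78%, against 29.8% to 35.5% for libraries of different species. Because A1 may not stand for culture A alone, counts that shift without it by over 1.5 times are given with library A2 as the only library of culture A. The low steps of RPKM in C. elegans A2 and B would put about 8830000 and 8630000 mapped reads behind them, an estimate from Ensembl exon lengths; the depth of the other 4 libraries is unknown.

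Most ortholog pairs had similar levels in the larvae of both species, and differences ran in both directions. The filter, which a pair could pass through 1 species alone, kept the 11640 pairs that reached 1 RPKM in 2 or more of the 4 cultures. Of these, 8201 (70.5%) differed by less than 2-fold, and the median difference, C. elegans minus C. briggsae on the scale of log2(RPKM + 1), was 0.0041. The limma test, with the libraries of culture A averaged and an adjusted p below 0.05, called 4445 pairs (38.2%), of which 2131 (18.3%) were higher and 2314 (19.9%) lower in C. elegans. The shares of 18.3% and 19.9% are those to hold beside the counts of each gene list below. Called differences of at least 2-fold numbered 3204 (27.5%), with 1496 (12.9%) higher and 1708 (14.7%) lower. All 6 libraries were separated by species in 7392 pairs (63.5%). At an unadjusted p below 0.05 the count was 5651. With A2 alone for culture A, 3162 pairs were called, 1343 higher and 1819 lower. Without C. briggsae culture A 2689 of these pairs were called, 1077 higher and 1612 lower, and without its culture B 2744, 1128 higher and 1616 lower.

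The largest differences were unequal in number. At 16-fold or more, 44 called pairs were higher and 155 lower in C. elegans; in 19 of the higher and 100 of the lower the other species had a mean below 1 RPKM. A total of 57 pairs reached 10 RPKM in C. elegans and stayed below 1 RPKM in C. briggsae, and 179 did so in C. briggsae and stayed below 1 RPKM in C. elegans. For 50 of the 179 the C. elegans value was below 1 RPKM in all 13 libraries of the species, as was the C. briggsae value for 8 of the 57. The contribution of the gene models and of the ortholog assignment to such near-zero values was not tested. Among 5130 pairs with at least 10 RPKM in all 6 libraries, 84.7% were within 2-fold and 1259 (24.5%) were called.

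**Figure D1:**
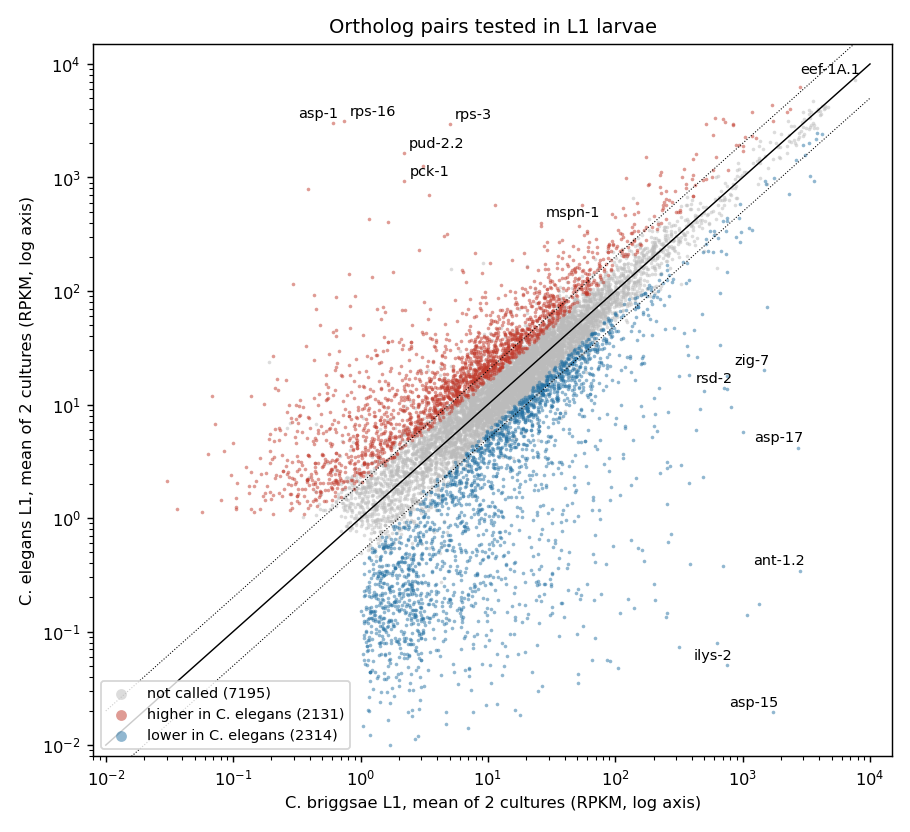
Mean RPKM of the 2 cultures in C. elegans (vertical, log axis) and C. briggsae (horizontal, log axis) for each tested ortholog pair in L1 larvae; values below 0.01 are drawn at 0.01, the solid line marks equality and dotted lines 2-fold. The cloud lies along the line, with 2131 pairs called higher (red) and 2314 called lower (blue) in C. elegans, and more points lie at low C. elegans values than at low C. briggsae values.

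Single digestive proteases of the gut differed widely between the species, in both directions, while the summed level of the aspartyl proteases overlapped. The aspartyl protease gene asp-1 (Y39B6A.20, chromosome V, 19049562 to 19050752 of WBcel235) had 3194, 4037 and 2430 RPKM in C. elegans, against 0.554, 0.599 and 0.628 RPKM in C. briggsae. Its log2 difference was 10.85 ± 0.24 (SE, adjusted p = 5.85e-05). Close by on chromosome V, asp-15 (19043215 to 19044853) had 0.0205, 0.0111 and 0.0231 RPKM in C. elegans, against 1798, 1739 and 1698 RPKM in C. briggsae, and asp-17 (19035723 to 19037322) had 3.54, 2.25 and 5.4 RPKM, against 2838, 2750 and 2661 RPKM. These were the most unequal members of the protease list, with no overlap between species. The 11 asp pairs together summed to 7084, 8787 and 5674 RPKM in C. elegans, against 8580, 8485 and 8322 RPKM in C. briggsae, so these ranges overlapped. In C. briggsae asp-17 exceeded asp-15 by nearly the same factor in every L1 library. Whether these 2 gene models share reads was not tested, and shared reads would enter the sum more than once. Of 19 gut cysteine and aspartyl proteases tested, 4 were higher and 5 lower in C. elegans, beside 18.3% higher and 19.9% lower among all pairs, with a median log2 difference of -0.21. The counts were 4 and 8 with the culture letter as a replicate block, 3 and 8 without C. elegans culture A and 3 and 2 without either C. briggsae culture. The cathepsin B-like gene cpr-4 was the highest on average, at 1895, 2295 and 1641 RPKM in C. elegans, against 2210, 2329 and 1510 RPKM in C. briggsae, and was not called (log2 difference 0.00 ± 0.27, adjusted p = 0.998). Its relative cpr-3 was higher, at 81.4, 93.2 and 70.1 RPKM in C. elegans, against 11.5, 16.4 and 5.44 RPKM in C. briggsae (log2 difference 3.02 ± 0.42, adjusted p = 0.00531).

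The list of intestinal structure, transport and identity genes was called less often than all pairs, though its regulators elt-2 and elt-7 were called higher. Of 25 intestinal genes 6 (24%) were higher and 0 lower at the threshold, beside 18.3% higher and 38.2% called among all pairs (4 and 0 with A2 alone for culture A, 6 and 3 with the replicate block). Without C. briggsae culture A 3 and 0 were called, without its culture B 4 and 0, without C. elegans culture A 4 and 1 and without its culture B 5 and 5. The median difference over the list was 0.06. The GATA factor gene elt-2, the main regulator of intestinal genes, had 31.2, 37.9 and 24.2 RPKM in C. elegans, against 9.23, 8.96 and 10.8 RPKM in C. briggsae (log2 difference 1.45 ± 0.25, adjusted p = 0.00946, and 0.0563 without C. briggsae culture A). Its partner elt-7 had 9.83, 12.5 and 7.24 RPKM, against 1.02, 1.09 and 0.994 RPKM (2.3 ± 0.25, adjusted p = 0.00258). The intestinal intermediate filament gene ifd-2 was at 82.5, 72.9 and 100 RPKM in C. elegans, against 8.65, 11.3 and 8.07 RPKM in C. briggsae (3.17 ± 0.22, adjusted p = 0.000881). The brush border actin act-5, the most abundant of the list, was not called, at 1005, 1026 and 1031 RPKM, against 949, 870 and 899 RPKM.

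Lysozymes and antimicrobial peptides, which digest bacteria or defend against them, had more lower than higher calls in C. elegans. Beside 18.3% higher and 19.9% lower among all pairs, 10 of 62 tested were higher and 25 lower, and the median difference was -0.65. The counts were 17 and 29 with the replicate block and 20 and 26 without C. elegans culture B, and 5 and 26 without C. briggsae culture B. Below 10 RPKM in both species, lower calls outnumbered higher ones by 5 to 0 among 9 members. At 10 to 100 RPKM this was 14 to 6 among 32, and at 100 RPKM or more 6 to 4 among 21. The median difference rose with level, at -1.27, -0.65 and 0.21, beside -0.075, 0.034 and 0.132 for all pairs. In sum the list overlapped, at 6425 to 7937 RPKM in C. elegans, against 6022 to 6707 RPKM in C. briggsae. The invertebrate-type lysozyme ilys-2 had 0.0554, 0.0480 and 0.0499 RPKM in C. elegans, against 854, 706 and 724 RPKM in C. briggsae (log2 difference -9.48 ± 0.18, adjusted p = 4.71e-05). The lysozyme gene lys-10 had 0.733, 0.666 and 0.744 RPKM, against 313, 445 and 170 RPKM (-7.20 ± 0.39, adjusted p = 0.000422). The caenacin peptides followed that direction where they differed: of 10 cnc genes tested 6 were lower and 0 higher, and the family summed to 178 to 219 RPKM in C. elegans, against 388 to 623 RPKM in C. briggsae. The saposin-like spp family went the other way in sum, at 5159, 5328 and 4417 RPKM in C. elegans, against 1926, 2082 and 2271 RPKM in C. briggsae. By member it had no direction, with 4 higher and 4 lower of the 20 tested. Among its members were spp-5, at 1673, 1693 and 1326 RPKM, against 564, 558 and 675 RPKM (1.28 ± 0.21, adjusted p = 0.009, but 0.109 and 0.0665 without C. briggsae culture A or B), and spp-14, at 1564, 1659 and 1402 RPKM, against 180, 218 and 150 RPKM (3.11 ± 0.21, adjusted p = 0.000779).

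**Figure D2:**
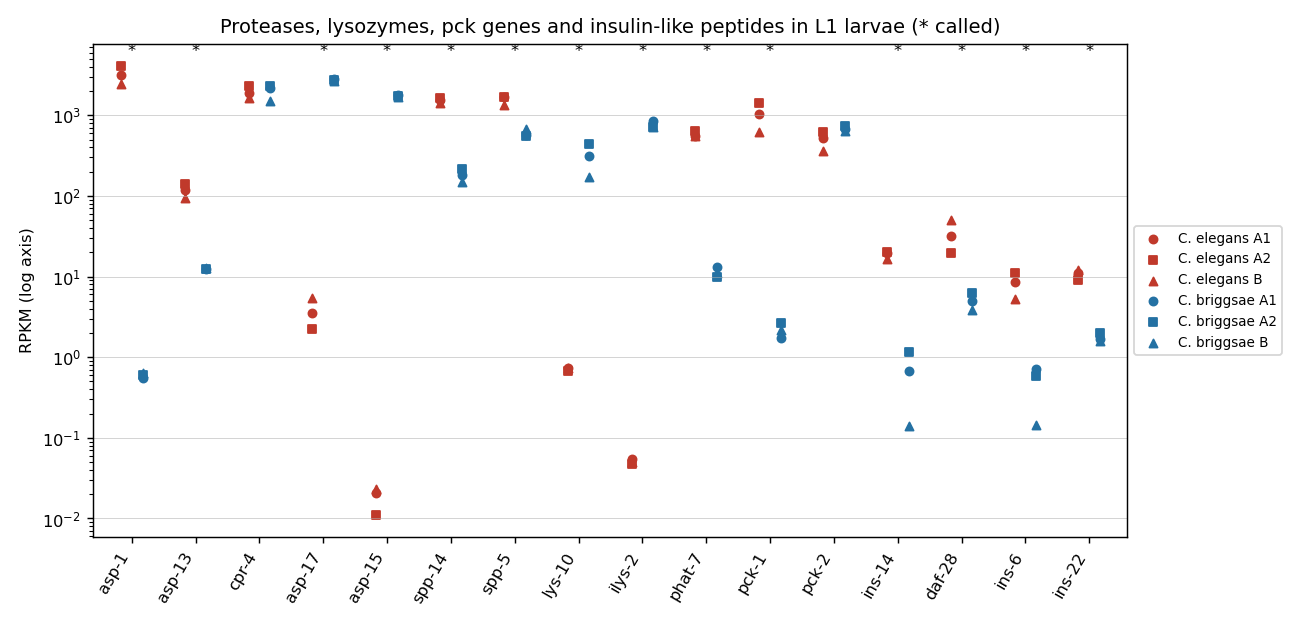
RPKM (log axis) of 16 genes named in the text in each library of C. elegans (red, left of each gene) and C. briggsae (blue, right), with circles, squares and triangles for A1, A2 and B and an asterisk over called pairs. asp-1 and asp-15 lie at opposite ends in the 2 species, while cpr-4 overlaps and pck-2 was not called.

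Cuticle collagens, the structural proteins of the worm's exoskeleton, were lower in C. elegans in most of the members tested. Of 147 pairs 100 passed the filter, and of these 64 were lower and 7 higher, with a median difference of -1.30. Among all pairs tested 19.9% were lower and 18.3% higher. Most of the collagens were scarce. Of the 60 tested that stayed below 10 RPKM in both species 42 (70%) were lower, beside 26.6% of all pairs at that level. Of the 17 at 100 RPKM or more 10 were lower, 2 higher and 5 not called, beside 16.5% lower among all pairs at that level. The most abundant by mean, col-117, had 1606, 1345 and 1704 RPKM in C. elegans, against 3719, 2658 and 3018 RPKM in C. briggsae (log2 difference -0.96 ± 0.18, adjusted p = 0.013). Its adjusted p was 0.0542 with A2 alone for culture A, 0.173 without C. briggsae culture A, 0.153 without its culture B and 0.586 with embryo cultures in the fit. col-10 had 730, 612 and 760 RPKM, against 2745, 2037 and 2259 RPKM (-1.70 ± 0.18, adjusted p = 0.00234, and 0.363 with embryo cultures in the fit). In neither did the species overlap, which held for 63.5% of all pairs tested.

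Some collagens were near 0 in the larvae of C. elegans and others in those of C. briggsae. col-135 had 0.126, 0.0548 and 0.0558 RPKM in C. elegans, against 405, 280 and 288 RPKM in C. briggsae, and col-33 had 0.255, 0.110 and 0.112 RPKM, against 367, 292 and 182 RPKM. col-7 had 0.334, 0.387 and 0.164 RPKM, against 252, 203 and 179 RPKM. The reverse held for col-144 (chromosome V, 9159586 to 9160642), at 1315, 1161 and 1292 RPKM in C. elegans, against 4.78, 2.68 and 2.49 RPKM in C. briggsae (8.30 ± 0.21, adjusted p = 8.67e-05), and for col-154, at 41.1, 35.3 and 49.5 RPKM, against 0.238, 0.386 and 0.893 RPKM. All collagens on the list summed to 8204, 7437 and 7305 RPKM in C. elegans, against 14561, 11146 and 11908 RPKM in C. briggsae. The median difference of the 100 tested was -1.32 in L2 and -1.83 in L4 but 0.71 in L3, beside medians of 0.16, -0.07 and 0.02 over all pairs. Several collagens also differed between libraries of a species: col-149 had 113, 1.43 and 252 RPKM in C. elegans and was not called (adjusted p = 0.0825, and 0.0135 with the replicate block), and sqt-3, a collagen that shapes the body, had 15.9, 1.11 and 6.63 RPKM, against 64.8, 63.8 and 10.5 RPKM (adjusted p = 0.104, and 0.0322 with the replicate block). Over the list 11 collagens were called higher and 67 lower with the replicate block, 12 and 63 without C. elegans culture B and 3 and 63 without C. briggsae culture B.

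**Figure D3:**
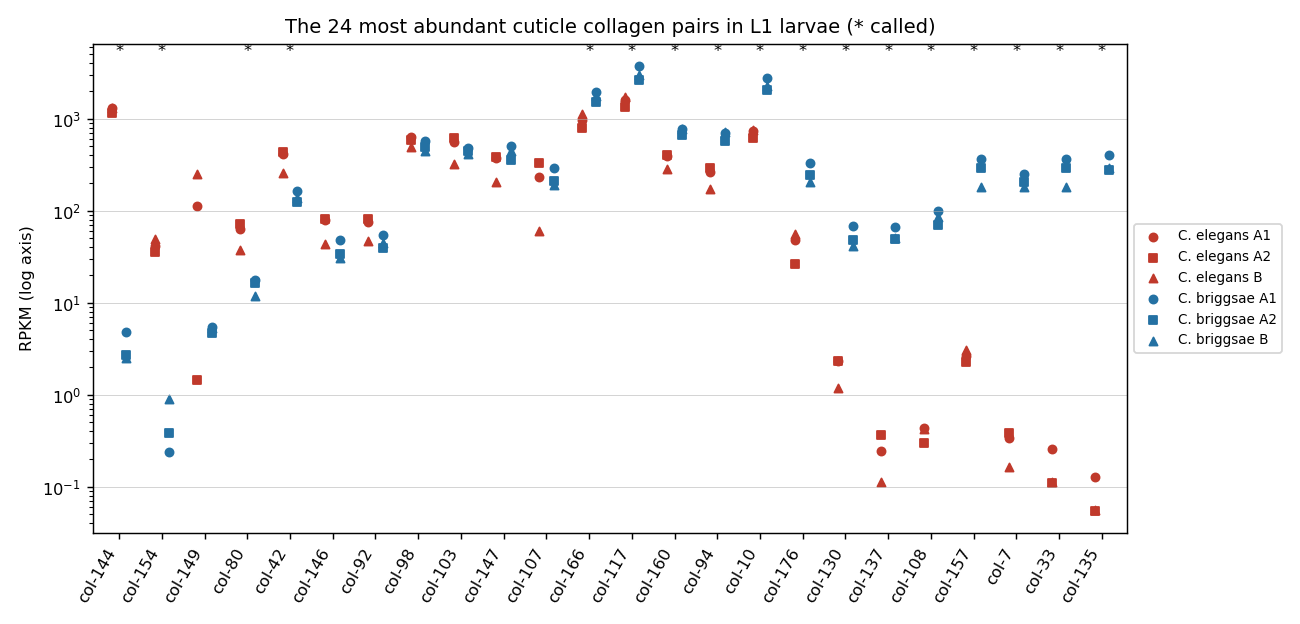
RPKM (log axis) of the 24 tested cuticle collagens with the highest mean in either species, ordered by their species difference, in each library of C. elegans (red, left of each gene) and C. briggsae (blue, right); an asterisk marks called pairs. The genes at the right end, such as col-135 with at most 0.126 RPKM in C. elegans and at least 280 RPKM in C. briggsae, are separated by more than 2 orders of magnitude, and col-149 spreads from 1.43 to 252 RPKM within C. elegans.

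Molting and timing genes were called in both directions, at 26.5% and 26.3% of those tested, beside 38.2% of all pairs. Of 49 molting genes 6 were higher and 7 lower (11 and 10 with the replicate block, 12 and 9 without C. elegans culture A); cuticlin-related cut-2 had 5.73, 0.434 and 3.69 RPKM in C. elegans, against 121, 111 and 63.4 RPKM in C. briggsae (log2 difference -4.51 ± 0.37, adjusted p = 0.00129, and 0.128 with embryo cultures in the fit). nhr-25, a nuclear receptor needed for molting, had 19.1, 17.9 and 16.7 RPKM, against 40.3, 40.2 and 45.3 RPKM (-1.23 ± 0.19, adjusted p = 0.00696, and 0.0511 without C. briggsae culture B), whereas its relative nhr-23 was not called, at 9.38, 5.20 and 13.6 RPKM, against 5.88, 5.05 and 8.96 RPKM. Of 19 heterochronic genes 1 was higher and 4 lower (2 and 6 with the replicate block, 0 and 3 without C. elegans culture A or without either C. briggsae culture). lin-46 had 2.18, 2.58 and 1.36 RPKM in C. elegans, against 24.7, 27.6 and 31.5 RPKM in C. briggsae (-3.39 ± 0.26, adjusted p = 0.00108), and the PUF RNA-binding gene puf-9 had 13.6, 14.7 and 10.3 RPKM, against 50.4, 45.2 and 50.7 RPKM (-1.94 ± 0.22, adjusted p = 0.00307). The species did not overlap in either, which held for 63.5% of all pairs tested. At L2, with 1 library per species, the difference of lin-46 was -0.57.

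Insulin-like peptides, the ligands of DAF-2, were higher in C. elegans where they differed, and the receptor gene was lower. Of 15 insulin-like peptides tested (ins genes and daf-28), 7 were higher and 0 lower, beside 18.3% higher and 19.9% lower among all pairs. The peptides summed to 351, 382 and 267 RPKM in C. elegans, against 170, 191 and 124 RPKM in C. briggsae. daf-28, an agonist that favours growth over dauer arrest, had 31.9, 19.4 and 49.8 RPKM in C. elegans, against 4.92, 6.25 and 3.82 RPKM in C. briggsae (log2 difference 2.69 ± 0.38, adjusted p = 0.0055). ins-6, another agonist, had 8.65, 11.2 and 5.22 RPKM, against 0.711, 0.577 and 0.144 RPKM (2.58 ± 0.34, adjusted p = 0.00465). ins-14 had 19.5, 20.3 and 16.3 RPKM, against 0.678, 1.17 and 0.142 RPKM (3.69 ± 0.30, adjusted p = 0.00129). daf-2 itself had 16.8, 18.4 and 12.4 RPKM, against 39.6, 37.6 and 32.1 RPKM (-1.2 ± 0.24, adjusted p = 0.0162), and age-1, the catalytic kinase subunit downstream of it, had 7.5, 7.32 and 7.36 RPKM, against 14.6, 15.7 and 18.3 RPKM (-1.08 ± 0.20, adjusted p = 0.0133). Without C. briggsae culture A or B daf-2 had an adjusted p of 0.091 and 0.0561, and without its culture B age-1 had 0.0772. The FOXO factor gene daf-16 averaged 27.7 ± 9.64 RPKM in C. elegans and 48.5 ± 4.31 RPKM in C. briggsae (SD, n = 2 cultures each) and missed the threshold (-0.83 ± 0.28, adjusted p = 0.0695, but 0.0126 with the replicate block). Over the list of 33 tested peptides and pathway genes 11 were higher and 2 lower, and the median was 0.38. With the replicate block 14 and 4 were called, without C. elegans culture A 11 and 4, without C. briggsae culture A 9 and 1 and without its culture B 8 and 0.

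Fuel metabolism differed in single enzymes. Its 2 gene lists were called about as often as all pairs (38.2%). The share was 37.5% for glycolysis, the glyoxylate cycle and the fasting response, and 34.6% for the fatty acid genes. Of all pairs tested 18.3% were higher and 19.9% lower. The phosphoenolpyruvate carboxykinase gene pck-1 (chromosome III, 62888 to 66260), which serves gluconeogenesis, had 1044, 1437 and 617 RPKM in C. elegans, against 1.74, 2.63 and 2.2 RPKM in C. briggsae (log2 difference 8.10 ± 0.35, adjusted p = 0.000238). Its paralog pck-2 had 524, 623 and 364 RPKM, against 667, 732 and 642 RPKM, and was not called (adjusted p = 0.154, and 0.00407 without C. elegans culture A), and the pair summed to 981 to 2060 RPKM in C. elegans, against 644 to 735 RPKM. Of 48 genes of glycolysis, the glyoxylate cycle and the fasting response 12 were higher and 6 lower (5 and 5 with A2 alone for culture A, 22 and 8 with the replicate block, 4 and 4 without C. briggsae culture A, 3 and 4 without its culture B), and the median was 0.49. Lipase lipl-5 was higher, at 79.9, 49.7 and 122 RPKM, against 18, 24.2 and 17 RPKM (2.16 ± 0.35, adjusted p = 0.00823), and fil-1, a lipase induced by fasting, was lower, at 3.63, 5.58 and 1.40 RPKM, against 65.7, 77.2 and 91.9 RPKM (-4.49 ± 0.43, adjusted p = 0.00187). Of 78 fatty acid genes 19 were higher and 8 lower (10 and 5 with A2 alone, 6 and 5 without C. briggsae culture A, 7 and 5 without its culture B). Fatty acid synthase fasn-1 had 80.8, 61.9 and 83.7 RPKM, against 30.4, 30 and 34.2 RPKM (1.23 ± 0.19, adjusted p = 0.00753, and 0.0558 without C. briggsae culture A). The desaturase fat-4, which makes polyunsaturated fatty acids, had 387, 482 and 236 RPKM, against 55.4, 59.8 and 62.4 RPKM (2.39 ± 0.32, adjusted p = 0.00465), and fat-6, a stearoyl-CoA desaturase, had 137, 139 and 114 RPKM, against 386, 448 and 335 RPKM (-1.56 ± 0.21, adjusted p = 0.00466).

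The ADP/ATP carriers, which exchange nucleotides across the inner mitochondrial membrane, differed in opposite directions. ant-1.1 (chromosome III, 13463163 to 13464652) had 6631, 8397 and 4904 RPKM in C. elegans, against 2574, 2834 and 2888 RPKM in C. briggsae (log2 difference 1.12 ± 0.26, adjusted p = 0.023, and 0.0621 with A2 alone for culture A). ant-1.2, on chromosome I, had 0.460, 0.666 and 0.126 RPKM in C. elegans, against 2569, 2850 and 2897 RPKM in C. briggsae (-11.05 ± 0.22, adjusted p = 4.71e-05), the largest difference of all named pairs. In C. briggsae the paralogs had nearly equal values, and the authors' treatment of reads shared by copies is not given in the sources used here, so their split is uncertain. Their sum was 6631, 8398 and 4904 RPKM in C. elegans, against 5144, 5684 and 5785 RPKM in C. briggsae, and overlapped. Reads counted for both copies would enter this sum more than once, which was not tested. ant-1.1 alone did not overlap, at 4904 to 8397 RPKM in C. elegans, against 2574 to 2888 RPKM in C. briggsae. Without C. briggsae culture A or B ant-1.1 had an adjusted p of 0.213 and 0.177. Of 50 respiratory chain subunits 10 (20%) were higher and 3 lower, a share of higher calls near the 18.3% of all pairs (11 and 5 without C. elegans culture A, 4 and 1 without C. briggsae culture A, 5 and 1 without its culture B). Higher were the cytochrome c oxidase subunits cox-4, at 905, 1049 and 787 RPKM, against 176, 180 and 192 RPKM (2.24 ± 0.19, adjusted p = 0.00141), and cox-6B, at 619, 676 and 501 RPKM, against 50.3, 57.6 and 55.2 RPKM (3.36 ± 0.20, adjusted p = 0.000523).

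Ribosomal protein genes, among the most abundant transcripts in both species, were close in level as a group. Their sum was 189340, 158685 and 205300 RPKM in C. elegans, against 173392, 170943 and 169487 RPKM in C. briggsae, and the median difference of the 71 pairs was -0.02. Of these, 19 were higher and 6 lower (13 and 2 with A2 alone, 17 and 3 with the replicate block, 21 and 11 with quantile normalization, 19 and 21 without C. elegans culture B, 11 and 1 without C. briggsae culture A, 10 and 1 without its culture B). The subunit genes rps-16, at 3266, 2928 and 3176 RPKM in C. elegans, against 1.14, 0.921 and 0.459 RPKM in C. briggsae, and rps-3, at 2895, 2444 and 3199 RPKM, against 4.20, 6.03 and 4.90 RPKM, stood apart from the rest. Among all pairs tested 18.3% were higher and 19.9% lower, for this list and those below. Elongation factor eef-1A.1 led both species by mean level, at 7106, 6363 and 7820 RPKM in C. elegans, against 7656, 7209 and 7725 RPKM in C. briggsae (log2 difference -0.06 ± 0.19, adjusted p = 0.817). Of 38 genes for making ribosomes 1 was higher and 6 lower (1 and 2 with A2 alone, 5 and 17 with the replicate block), with a median of -0.41. Without C. elegans culture A these counts were 4 and 6, without its culture B 1 and 12, without C. briggsae culture A 0 and 3 and without its culture B 0 and 0. The nucleolar methyltransferase gene fib-1 had 303, 137 and 498 RPKM, against 1081, 1050 and 1196 RPKM (-1.82 ± 0.43, adjusted p = 0.0255). Its adjusted p was 0.0691 with A2 alone, 0.0992 without C. briggsae culture A and 0.119 without its culture B. Proteasome subunits were mostly higher where they differed: of 31 tested 13 were higher and 1 lower (8 and 0 with A2 alone; 14 and 0 without C. elegans culture A, 5 and 0 without C. briggsae culture A, 6 and 0 without its culture B), the median was 0.39, and the ATPase gene rpt-2 had 87.9, 69.6 and 103 RPKM, against 24.8, 27.3 and 22.3 RPKM (1.85 ± 0.22, adjusted p = 0.0034).

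**Figure D4:**
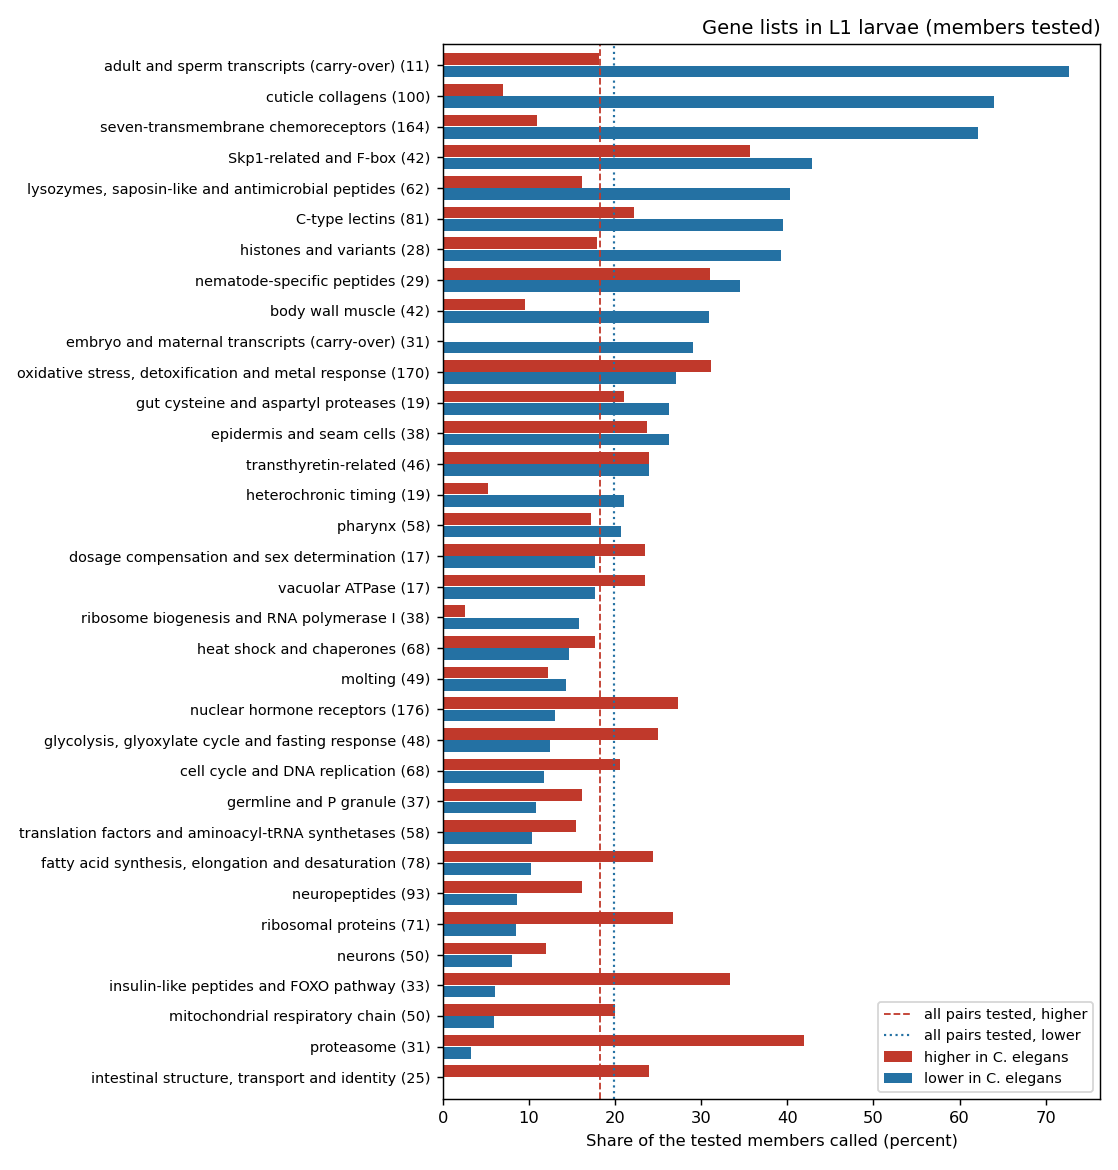
Share of tested members called higher (red, upper bar) and lower (blue, lower bar) in C. elegans for each of 34 gene lists, with the number tested in parentheses and the shares over all 11640 pairs as lines at 18.3% and 19.9%. Adult and sperm transcripts, cuticle collagens and chemoreceptors have the longest blue bars, and the proteasome the longest red bar.

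Among tissue markers, body wall muscle leaned toward lower levels in C. elegans. Of 42 muscle genes 4 were higher and 13 lower (1 and 6 with A2 alone, 2 and 16 with quantile normalization). Among all pairs 18.3% were higher and 19.9% lower, and the median of the muscle list was -0.23. The muscle myosin gene myo-3 averaged 43.7 ± 9.87 RPKM in C. elegans and 94 ± 10.5 RPKM in C. briggsae (SD, n = 2 cultures each; log2 difference -1.105 ± 0.23, adjusted p = 0.0171, but 0.0507 with A2 alone, 0.102 and 0.0659 without C. briggsae culture A or B and 0.243 with embryo cultures in the fit), while the major body wall myosin unc-54 did not differ beyond its spread, at 428, 443 and 433 RPKM, against 436, 384 and 449 RPKM (0.02 ± 0.17, adjusted p = 0.942). Actin act-4 had 949, 911 and 930 RPKM, against 3674, 3498 and 3688 RPKM. The 3 actin pairs together summed to 2477 to 2893 RPKM in C. elegans, against 6283 to 6825 RPKM in C. briggsae. Whether the actin copies share reads was not tested, and shared reads would enter this sum more than once. In whole larvae fewer cells of a type and less RNA per cell cannot be told apart. The muscle list had 0 higher and 4 lower calls without C. briggsae culture A, 0 and 3 without its culture B, 2 and 12 without C. elegans culture A and 2 and 13 without its culture B.

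Pharyngeal and neuronal genes were called about as often as all pairs or less. Of 58 pharyngeal genes 10 were higher and 12 lower (4 and 9 without C. briggsae culture A, 5 and 7 without its culture B). phat-7, of a secreted family of the pharyngeal glands, had 548, 635 and 548 RPKM in C. elegans, against 13.2, 9.81 and 11 RPKM in C. briggsae (log2 difference 5.55 ± 0.17, adjusted p = 0.000116). The pharyngeal myosin genes myo-1 and myo-2 were not called, with differences of 0.30 and 0.11. Of 50 neuronal genes 6 were higher and 4 lower, and the median was -0.01 (3 and 4 with A2 alone, 2 and 6 without C. elegans culture A, 2 and 3 without C. briggsae culture A, 2 and 2 without its culture B). The synaptic genes rab-3 (-0.01 ± 0.17, adjusted p = 0.972) and egl-3 (-0.08 ± 0.27, adjusted p = 0.848) were not called. odr-10, the receptor for the odorant diacetyl, had 13.4, 16.4 and 8.42 RPKM, against 2.63, 4.45 and 0.573 RPKM (2.21 ± 0.55, adjusted p = 0.0294, but 0.0783 with A2 alone and 0.071 without C. briggsae culture B). cat-2, the tyrosine hydroxylase of dopamine neurons, had 3.16, 4.22 and 2.42 RPKM, against 8.99, 12.4 and 8.02 RPKM (-1.36 ± 0.26, adjusted p = 0.0133, and 0.0603 without C. briggsae culture A). Of 93 neuropeptide genes 15 were higher and 8 lower, and 26 and 20 with the replicate block. The counts were 7 and 5 with A2 alone, 13 and 28 without C. elegans culture A and 37 and 8 without its culture B. Without C. briggsae culture A they were 4 and 3 and without its culture B 4 and 6.

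Chemoreceptors, the large families of sensory receptors, were mostly too scarce to test: 376 of 540 pairs did not pass the filter. Of the 164 tested 18 were higher and 102 lower in C. elegans. A pair could pass the filter through 1 species alone, and the part of this in the counts was not tested. Of the 164, 151 stayed below 10 RPKM in both species. Of these 151, 9.93% were higher and 61.6% lower, beside 15.7% and 26.6% of all pairs at that level. With quantile normalization 48 of the 164 were higher and 62 lower, and the median was -0.07 in place of -0.93, so the size of the shift depended on the scaling. As deposited, the median of the 164 was also -0.996 in embryos, -0.858 at L2, -0.807 at L4 and -0.878 in young adults. The shift was thus not particular to L1. str-55 was the exception in level, with 0.168, 0.122 and 0.124 RPKM in C. elegans, against 264, 265 and 237 RPKM in C. briggsae (log2 difference -7.79 ± 0.19, adjusted p = 7.96e-05).

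Heat shock genes were lower in C. elegans for the small inducible forms. hsp-16.20 had 0.674, 1.07 and 0.399 RPKM in C. elegans, against 19.1, 10.9 and 52.2 RPKM in C. briggsae (log2 difference -4.15 ± 0.60, adjusted p = 0.00583), and hsp-16.41 had 2.26, 2.72 and 1.39 RPKM, against 29.3, 23.9 and 68.1 RPKM (-3.92 ± 0.48, adjusted p = 0.00381). Of the 4 hsp-16 pairs 3 were lower and 0 higher, and they summed to 17.9 to 20.3 RPKM in C. elegans, against 45.8 to 162 RPKM in C. briggsae, with the highest value in C. briggsae culture B. The constitutive chaperone hsp-1 was not called, at 1228, 881 and 1626 RPKM, against 1013, 899 and 1467 RPKM. Over the 68 heat shock genes and chaperones tested 12 were higher and 10 lower (6 and 7 with A2 alone, 5 and 7 without C. briggsae culture A, 7 and 7 without its culture B). The superoxide dismutase gene sod-5 had 0.154, 0.0954 and 0.165 RPKM, against 71, 44.9 and 158 RPKM (-6.38 ± 0.49, adjusted p = 0.00108).

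Further pairs differed widely, among them pairs with 10 RPKM or more in both species. Among pairs with at least 10 RPKM in all 6 libraries wide differences were those of zig-7, an immunoglobulin-domain gene with 23.4, 29.6 and 13.7 RPKM in C. elegans, against 1413, 1474 and 1522 RPKM in C. briggsae, of rsd-2, which takes part in RNA interference, with 14, 13.7 and 13.8 RPKM, against 987, 746 and 647 RPKM, and of lias-1, lipoic acid synthase, with 81.7, 102 and 54 RPKM, against 1549, 1545 and 1577 RPKM. In the other direction the dynein light chain gene dlc-1 had 375, 302 and 403 RPKM in C. elegans, against 27, 26.1 and 25.5 RPKM in C. briggsae (log2 difference 3.77 ± 0.18, adjusted p = 0.000325). gsto-1, a glutathione transferase of the omega class, had 242, 360 and 70.4 RPKM, against 13.8, 16.8 and 15.5 RPKM (3.15 ± 0.66, adjusted p = 0.0174); its adjusted p was 0.0731 without C. briggsae culture A and 0.0707 without culture B. The nematode-specific genes pud-1.2 and pud-2.2, neighbours on chromosome V that are near-identical to other pud copies, had 849, 829 and 754 RPKM and 1793, 1780 and 1468 RPKM in C. elegans, against 0.264, 0.387 and 0.455 RPKM and 2.67, 4.43 and 0.811 RPKM in C. briggsae. All 4 pud pairs summed to 3185 to 3733 RPKM, against 5.61 to 12.4 RPKM.

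The L1 differences were mostly kept at later stages and less so in embryos. Of the 3204 called differences of at least 2-fold, 92.2% had the same sign at L2, 87.7% at L3, 90.9% at L4, 90.7% at late L4 and 79.9% in young adults, each with 1 library per species, and 72.8% in embryos. The sign was the same in all 5 later stages for 2053 (64.1%). These shares were not computed over all pairs tested, so how far they exceed those of all pairs is unknown. The species difference in L1 larvae differed from that in embryos in 6299 of 12603 pairs (50%) by a limma interaction over 8 cultures, with 2159 (17.1%) higher and 4140 (32.8%) lower in L1, and the split turned to 3376 higher and 2898 lower with quantile normalization. Over all pairs tested in L1 the median species difference was 0.34 in embryos, beside 0.004 in L1. The part of this shift in the split and in the signs was not tested. Of the 3204, 1841 (57.5%) had a called interaction, and in 863 of these the embryo difference had the opposite sign. The difference of ant-1.2 ran from -11.05 to -10.29 over the 7 stages and that of rps-16 from 9.28 to 11.26. The C. briggsae values of ant-1.2 were nearly those of ant-1.1 at each stage, so their split is uncertain here too. pud-2.2 was 9.16 higher in C. elegans at L1 and 10.36 at L2 but 0.72 at L4 and -2.79 in young adults. phat-7 had its widest difference at L1, 5.55, against 0.04 in embryos and 2.02 at L2, and col-135 was lower by 8.19 at L1 and higher by 2.56 in young adults. In embryos phat-7 was at most 0.359 RPKM in C. elegans and 0.414 RPKM in C. briggsae, so its 0.04 does not compare expressed levels.

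**Figure D5:**
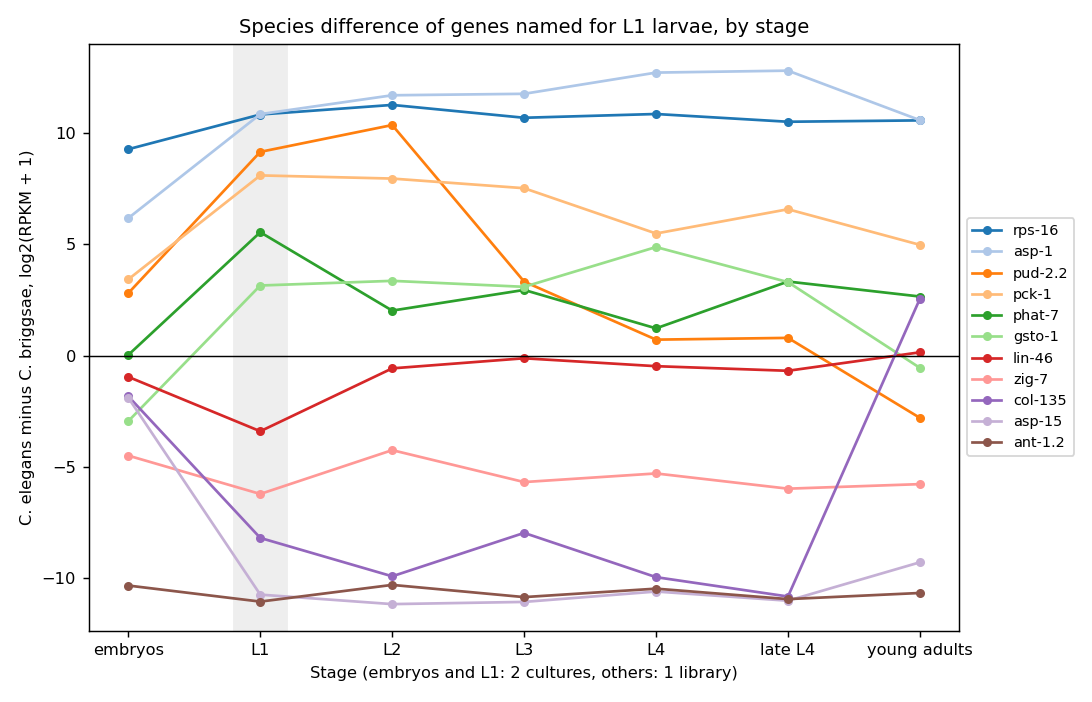
Difference of C. elegans minus C. briggsae in log2(RPKM + 1) for 11 named genes at each stage from embryos to young adults; embryos and L1 larvae are means of 2 cultures and other stages 1 library per species, and the grey band marks L1. The line of rps-16 stays between 9.28 and 11.26 and that of ant-1.2 between -11.05 and -10.29, pud-2.2 falls toward young adults, and lin-46 and phat-7 are widest at L1.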

How the data were processed

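The deposited values are RPKM, which the authors computed per gene model in 26 poly(A)+ libraries; per the submitters' processing notes reads were aligned with BWA 0.5.7. Genome build, annotation, counting rule and the origin of the orthologs: not given in the sources used here. No deposited RPKM value equals 0 (the lowest is 0.000122), so values near the bottom are a floor. Of 21774 IDs 13938 had C. briggsae values, and 125 that shared theirs with another ID were left out. Sequence names of 13522 of 13813 pairs matched Ensembl 115 (WBcel235), which gave the C. elegans coordinates, and 8613 pairs had a symbol. Sequences were not used here.

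RPKM were used as deposited and tested on log2(RPKM + 1) with the linear models of limma 3.58.1 (R 4.3.3), with empirical Bayes moderation that follows the mean level, checked on simulated data. The scale understates the differences of scarce genes. Libraries A1 and A2 were averaged on the log2 scale into culture A, which gave n = 2 cultures per species and 2 residual degrees of freedom. Pairs with at least 1 RPKM in at least 2 cultures were tested, with Benjamini-Hochberg adjustment over all of them and a threshold of 0.05. SE is that of the limma coefficient. An exact permutation test of 2 against 2 cultures cannot go below 0.333 and was not used. The labels describe A as the initial time course and B as its repeat in both species; the deviations of A from B correlated between the species with r = 0.308 over 11640 pairs, and a fit with the culture letter as a replicate block is an alternative. Correlations over pairs are descriptions.

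Named genes are the 8 largest called differences per direction with separated libraries, over all pairs and over pairs with at least 10 RPKM in all 6 libraries, the 8 most abundant per species, and in each of 34 lists the 2 widest called members and the most abundant. Other members were chosen after their values were seen, as were the list counts without a library or culture and the interaction without an embryo culture. Fits without a culture keep the pairs that passed the filter with all cultures. The part, the lists and the rules were chosen with earlier results of these data known. Python 3.11.15, numpy 2.4.6, pandas 2.3.3 and matplotlib 3.10.9 did the rest.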

Additional observations from a re-analysis of the deposited data

Results flagged for a closer look

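The genes named for the widest differences were 8 per direction over all pairs. Another 8 per direction had at least 10 RPKM in all 6 libraries. In 22 of these genes the species difference in L1 larvae differed from that in embryos by the limma interaction test (adjusted p below 0.05). Over all 12603 pairs 6299 (50%) did so. The genes were chosen by the L1 values that the interaction reuses, so a high share among them is no separate result. The interaction is the L1 difference minus the embryo difference on the log2(RPKM + 1) scale, so a positive value means that C. elegans stood higher relative to C. briggsae at L1 than in embryos.

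Positive interactions belonged to pud-1.2 (6.78, adjusted p = 7.51e-05), pud-2.2 (6.34), gsto-1 (6.09, adjusted p = 0.000857), asp-1 (4.67), pck-1 (4.67), tag-209 (4.36), mspn-1 (1.91), col-144 (1.64) and rps-16 (1.56). The sign itself was turned in gsto-1, with 3.15 at L1 and -2.94 in embryos, and in tag-209, with 3.10 at L1 and -1.25 in embryos.

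Negative interactions belonged to asp-15 (-8.84, adjusted p = 0.0019), ilys-2 (-7.86), col-33 (-7.56), col-7 (-7.35, adjusted p = 3.81e-05), str-55 (-7.20), asp-17 (-6.82), col-135 (-6.36), slc-17.1 (-5.69), pigk-1 (-4.34), grsp-1 (-3.72), chmp-7 (-3.71), lias-1 (-2.87) and zig-7 (-1.72). The SE of these values ran from 0.217 for chmp-7 to 1.675 for asp-17. col-7 was at most 0.505 RPKM in C. elegans embryos and 0.492 RPKM in C. briggsae embryos, so its interaction restates its L1 difference. str-55 was at most 0.34 RPKM in C. elegans embryos and 2.33 RPKM in C. briggsae embryos, so its interaction largely restates its L1 difference of -7.79. All 22 kept an adjusted p below 0.05 when any 1 embryo culture was left out.

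In 7 of the genes with negative values 1 C. briggsae embryo culture stood apart, so the size of the interaction varied with it. slc-17.1, a transporter gene, had 16.3, 17.9 and 22.2 RPKM in C. elegans embryos, against 23.4, 17.6 and 1.96 RPKM in C. briggsae embryos (libraries A1, A2 and B). Its species difference was -4.32 at L1 and 1.37 in embryos, and its interaction was -7.11 without C. briggsae embryo culture A and -4.26 without culture B. asp-15 had at most 0.0979 RPKM in C. elegans embryos, against 14.5, 14 and 0.0571 RPKM in C. briggsae embryos, and its interaction was -10.76 and -6.91 without culture A and without culture B. For asp-17, with 23.1, 24.4 and 0.0301 RPKM in C. briggsae embryos, these values were -9.11 and -4.53, for col-33 -9.52 and -5.6, for col-135 -7.98 and -4.74, for ilys-2 -9.35 and -6.38 and for grsp-1 -4.88 and -2.56. With C. briggsae embryo culture A left out, asp-15, asp-17, ilys-2 and col-135 were below 1 RPKM in the embryos of both species. Their interactions in that fit therefore restate their L1 differences.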

How the results depend on the processing

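The count of called pairs stayed within 1.5 times of 4445 under the alternatives of pseudocount, filter, scaling, variance trend, A1 or A2 alone and added embryo cultures (3162 to 5592). With each library as a sample it was 6700. With the culture letter as a replicate block it was 5666, the count of at least 2-fold differences was 3418 and the interaction count 6450. Where the block moved the count of a list described here by over 1.5 times, the values stand beside it; of the named genes it also left rps-3A (adjusted p = 0.0741) and rack-1 (adjusted p = 0.0644) short of the threshold. Leaving out 1 culture, with the lone culture assumed to vary like the others, gave 2689 to 4429 called pairs, 2481 to 3616 of at least 2-fold, medians of -0.034 to 0.034 and 5091 to 5651 interactions; the lowest counts of called pairs came from leaving out a C. briggsae culture. These keep the 11640 pairs that passed the filter in all 4 cultures. With the filter applied again to the 3 cultures left, 1564 to 4082 pairs were called (1564 and 1566 without C. briggsae culture A or B, each by at least 2-fold), 1564 to 3361 by at least 2-fold, with medians of -0.061 to 0.114; a pair present in C. briggsae alone cannot pass with 1 C. briggsae culture, so only 10622 and 10629 pairs were tested without its culture A or B. A pseudocount of 5 gave 1689 differences of at least 2-fold in place of 3204, since it shrinks the folds of scarce genes. Quantile normalization gave 2452 higher and 2137 lower calls. Of 1730 values of the 102 called genes named by rule under an alternative 1683 kept the call, 47 lost it and 0 changed sign; 17 genes lost it without some culture and 11 under another alternative. Of 271 values of the 16 called genes named outside the rule 11 lost the call, in 7 genes, and 0 changed sign. Leaving out 1 embryo culture gave 5011 to 5990 interactions; it and the repeated filter were chosen after seeing the data. Among named genes that were not called the sign turned in rps-7 (-0.040 with median-ratio scaling, -0.047 with equal sums, -0.067 with A2 alone, -0.014 with each library as a sample), rpl-10L (0.031) and pdi-2 (0.026) with A1 alone, cpr-4 with A2 alone (0.049), and act-5 (-0.041) and hsp-1 (-0.109) with quantile normalization. Leaving out 1 culture gave -0.114 to 0.164 for rps-7, -0.148 to 0.014 for rpl-10L, -0.172 to 0.046 for eef-1A.1, -0.357 to 0.056 for rps-4, -0.352 to 0.1 for rplp-0, -0.294 to 0.293 for cpr-4, -0.556 to 0.127 for egl-21, -0.549 to 0.256 for pdi-2, -0.818 to 0.659 for hil-3 and -0.186 to 0.458 for hsp-1. The cause of these shifts was not tested. Depth is unknown for 4 of the 6 libraries. The share called was 23% higher and 25% lower in gene models under 500 bases, and 10.7% and 13.5% at 4000 bases or more.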

Other observations

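Nuclear hormone receptors, a family of transcription factors that is large in nematodes, were more often higher in C. elegans: of 176 tested 48 were higher and 23 lower, and their median was 0.29 beside 0.0041 over all pairs (31 and 16 without either C. briggsae culture). nhr-122 had 16.1, 20.0 and 9.77 RPKM in C. elegans, against 0.205, 0.202 and 0.221 RPKM in C. briggsae (log2 difference 3.56 ± 0.31, adjusted p = 0.00144), and nhr-97, the most abundant, had 130, 102 and 138 RPKM, against 263, 307 and 287 RPKM (-1.18 ± 0.18, adjusted p = 0.00721, but 0.0592 and 0.0621 without C. briggsae culture A or B). Stress and detoxification genes were called often in both directions, 53 higher and 46 lower of 170 (33 and 37 with A2 alone, 27 and 44 without C. briggsae culture A, 33 and 35 without its culture B). Among all pairs tested 38.2% were called, 18.3% higher and 19.9% lower. Catalase ctl-2 had 60.6, 58.0 and 62.6 RPKM, against 17.2, 20.5 and 19.3 RPKM (1.63 ± 0.18, adjusted p = 0.0026), and cdr-1, a gene induced by cadmium, had 1.25, 1.54 and 0.820 RPKM, against 21.7, 21.3 and 37.5 RPKM (-3.82 ± 0.33, adjusted p = 0.00142).

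C-type lectins, secreted proteins of which many respond to microbes, were higher in 18 and lower in 32 of 81 (11 and 24 without C. briggsae culture A). clec-50 averaged 315 ± 109 RPKM in C. elegans and 4.77 ± 1.85 RPKM in C. briggsae (SD, n = 2 cultures each; log2 difference 5.76 ± 0.35, adjusted p = 0.000576). clec-64 had 6.88, 9.03 and 4.03 RPKM, against 437, 476 and 402 RPKM, while its relative clec-63 had 861, 1052 and 745 RPKM, against 434, 465 and 398 RPKM (adjusted p = 0.0167, but 0.107 and 0.154 without C. briggsae culture A or B and 0.159 with embryo cultures in the fit); in C. briggsae the values of the 2 genes were nearly equal. Histone genes were higher in 5 and lower in 11 of 28 (3 and 10 without C. briggsae culture B), among them his-48, an H2B gene with near-identical copies, at 3.66, 2.47 and 3.21 RPKM, against 254, 256 and 251 RPKM. Beside these lists, 18.3% of all pairs tested were higher and 19.9% lower. By chromosome of the C. elegans gene, the share of tested pairs called lower was 24.8% on chromosome V and 16.4% to 20.3% on the others, and the share called higher was 16.6% to 19.8%.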
